A study of Mus minutoides with 4 samples.

Results

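Cholesterol and fatty acid synthesis was examined through 32 genes in RNA-seq libraries of *Mus minutoides*, the African pygmy mouse. The genes were chosen by name, as known members of the pathways, with earlier results of these data known. All 32 were found among the 41325 genes of the deposited tables. The libraries came from tail-tip fibroblast lines 1 and 2, which were not reprogrammed and grew in medium with serum, and from iPSC lines 6 and 10. The iPSCs were made from *M. minutoides* fibroblasts with transposon vectors for *Nanog*, *Lin28a*, *Glis1*, *c-Myc*, *Oct3/4*, *Klf4* and *Sox2* under doxycycline control, which contained human sequences with *Glis1* cloned from mouse, and doxycycline had been withdrawn. Each iPSC line was grown from cells of a colony on mitomycin C-treated mouse embryonic fibroblasts, in a serum replacement medium with 2i inhibitors. There was 1 library per line (n = 2 per group), and the sources used here do not give the age of the animals. They also do not say if the lines within a group derive from different animals, and all p-values therefore reflect the spread of these libraries alone, which may be technical. Cell type, medium and feeder cells cannot be told apart in this comparison.

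Cells build cholesterol from cytosolic acetyl-CoA. The mevalonate pathway makes isoprenoid units, these are joined into squalene, squalene is folded into lanosterol, and a series of enzymes turns lanosterol into cholesterol. Fatty acids start from the same acetyl-CoA through acetyl-CoA carboxylase and fatty acid synthase, and are then lengthened and desaturated. The SREBP transcription factors drive both branches. When sterols are plentiful, INSIG proteins hold the SREBP escort protein SCAP in the endoplasmic reticulum, and when sterols are scarce SREBP is released and its targets, which include *Insig1*, are transcribed.

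The exon reads summed to between 33084850 and 36694828 per library, and the 32 genes had between 312 and 36709 exon reads each in a library. Labels were checked against markers, whose counts are read against the 27.1% of all genes tested called higher and the 22.3% called lower. All 10 pluripotency markers were called higher in the iPSC lines, with a summed TPM of 1.12 and 1.53 in fibroblasts and of 6460 and 7202 in iPSC lines 6 and 10. Of 20 fibroblast markers 15 were called lower and 1, *Fbln1*, higher (2 without iPSC line 10), and their summed TPM in iPSC lines 6 and 10 was 26.1% and 14.3% of the fibroblast mean, with *Col1a1* at 2244 and 1430 TPM. Of 14 macrophage markers 12 were called higher in the iPSC libraries, with a summed TPM of 294 in line 6 and 742 in line 10 against 10.8 and 8.5 in fibroblasts, and *Lyz2* at 203 and 463 TPM. Of 8 endothelial markers 7 passed the filter on low counts, of which 4 were called higher and 1, *Flt1*, lower. Their summed TPM was 36.2 to 44 in the libraries. *Flt1* fell from 27.6 and 28.2 TPM in fibroblasts to 5.39 and 3.45 in iPSC lines 6 and 10. *Tek* rose from 0.662 and 1.09 TPM to 20.9 and 13.7. The part that RNA of such cells had in the values of the lipid genes was not tested. Reads of *M. minutoides* were placed on the *M. musculus* build GRCm38, and genes that have diverged between both species may be undercounted.

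Most genes of cholesterol synthesis and all 4 desaturase genes were called lower in iPSCs than in fibroblasts, whereas none of the 3 genes that make the fatty acid chain was called. Differences were tested with the edgeR quasi-likelihood method on TMM-normalized exon reads. A call required a fold over 2 and a Benjamini-Hochberg adjusted p, taken over all tested genes, under 0.05. Of the 32 genes 19 were called lower and 0 higher, while among the 17777 genes tested 22.3% were called lower and 27.1% higher. The median log2 fold change of the 32 genes was -1.32, beside 0.08 for all genes tested. An adjusted p under 0.05 at any fold was reached by 26 of the 32 genes, beside 70.8% of all genes tested. All 32 genes passed the filter on low counts. In TPM, a level per exon length with the same total in every library, both iPSC lines lay under both fibroblast lines for 26 of the genes, above them for 3 and overlapped them for 3, where 37.8% of all genes tested lay under and 48.7% above. Without TMM, on total counts, the median moved to 0.36 for all genes and to -1.03 for these genes, of which 17 were then lower and 1 higher, and over all genes 5768 were higher and 3028 lower instead of 4818 and 3962. In bulk libraries fewer cells of a type and less RNA per cell cannot be told apart.

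**Figure D1:**
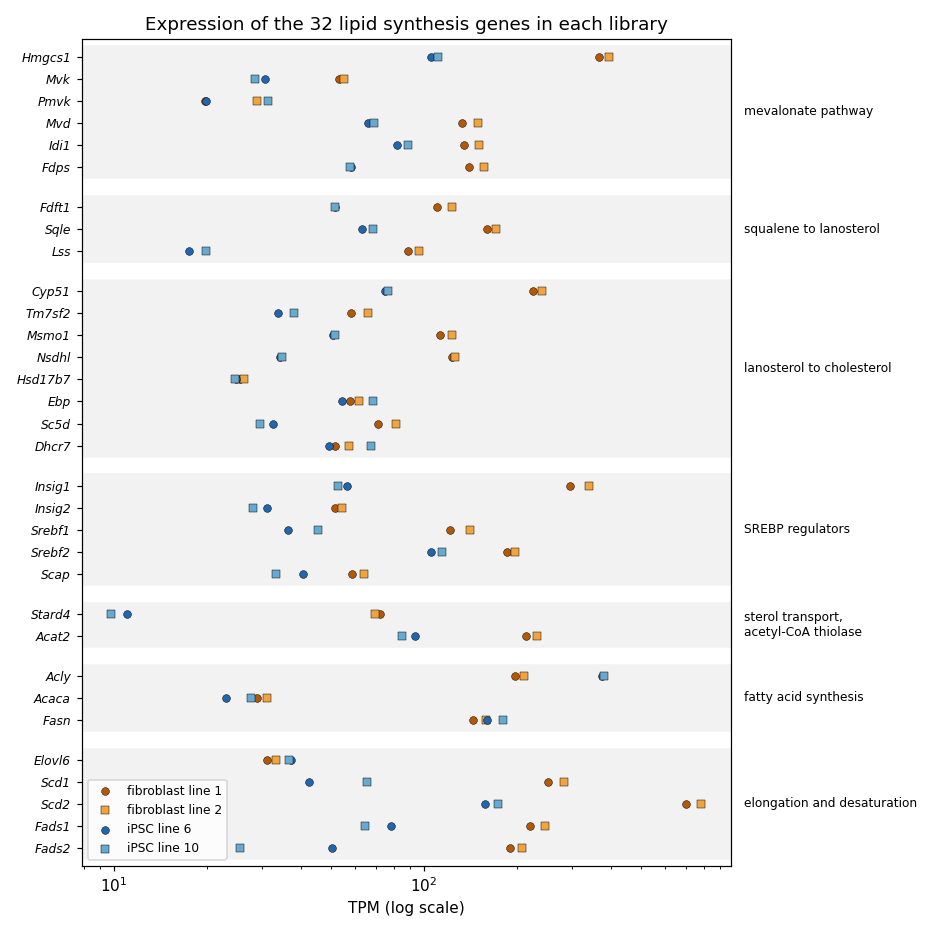
TPM (log scale) of the 32 genes in fibroblast lines 1 and 2 and iPSC lines 6 and 10, 1 point per library, grouped by step of the pathway. The iPSC points lie left of the fibroblast points for 26 genes, and the widest shifts are those of *Stard4*, *Insig1*, *Fads2*, *Lss* and *Scd1*.

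In the mevalonate pathway, 4 of 6 genes fell in iPSCs, and 2 on total counts, where *Mvd* (log2 fold change -0.90) and *Mvk* (-0.72) were no longer called. *Hmgcs1* (ENSMUSG00000093930, chromosome 13 from 119690379 to 119708260) encodes HMG-CoA synthase, an early enzyme of the mevalonate pathway. Its TPM reached 368 and 396 in fibroblast lines 1 and 2 but 105 and 111 in iPSC lines 6 and 10. The groups were far apart and the lines within each close together, and the log2 fold change was -1.95 (SE 0.07, adjusted p = 0.00018 from edgeR). *Fdps*, which makes farnesyl diphosphate, was at 140 and 156 TPM in fibroblasts and 58 and 57.7 TPM in iPSCs (log2 fold change -1.48, SE 0.0693). *Mvd*, the decarboxylase that yields isopentenyl diphosphate, was at 133 and 149 TPM against 65.9 and 68.9 TPM (log2 fold change -1.19, SE 0.0733). The mevalonate kinase gene *Mvk* had 53.3 and 55.1 TPM in fibroblasts and 30.7 and 28.5 TPM in iPSCs. Its log2 fold change of -1.0 (SE 0.101, adjusted p = 0.0013 from edgeR) sat at the fold threshold, and its call was lost in most other settings, including without fibroblast line 1 (-0.98) or iPSC line 10 (-0.94).

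The isomerase gene *Idi1* was also under the fibroblast level in both iPSC lines, with 135 and 151 TPM against 81.6 and 88.8 TPM, but its log2 fold change of -0.87 did not pass the fold threshold. *Pmvk*, which encodes phosphomevalonate kinase, was the mevalonate gene whose groups overlapped. It had 19.6 TPM in fibroblast line 1 and 28.9 in line 2, and 19.8 TPM in iPSC line 6 and 31.4 in line 10. The lines of each group differed more than the groups did, and the 95% interval of its log2 fold change ran from -0.79 to 0.71.

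All 3 genes that take farnesyl diphosphate to lanosterol fell. The squalene synthase gene *Fdft1* had 110 and 123 TPM in fibroblast lines 1 and 2 and 51.5 and 51.6 TPM in iPSC lines 6 and 10 (log2 fold change -1.30, SE 0.0685). The squalene epoxidase gene *Sqle* was at 160 and 171 TPM against 63.1 and 68.3 TPM (log2 fold change -1.46, SE 0.0744). *Lss* (ENSMUSG00000033105, chromosome 10 from 76531588 to 76557138), which encodes lanosterol synthase, showed the largest fall among the 17 enzymes of cholesterol synthesis. It went from 89.1 and 96.7 TPM to 17.4 and 19.8 TPM, a log2 fold change of -2.45 (SE 0.0869, adjusted p = 0.00018 from edgeR), so the iPSC mean was 20% of the fibroblast mean.

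From lanosterol to cholesterol the genes divided, with 4 of 8 called lower. *Cyp51* (ENSMUSG00000001467, chromosome 5 from 4081145 to 4104746), the lanosterol demethylase, had 224 and 240 TPM in fibroblasts and 75.1 and 76.3 TPM in iPSCs (log2 fold change -1.74, SE 0.0694, adjusted p = 0.00021 from edgeR). *Nsdhl*, an X-linked enzyme of C4 demethylation (chromosome X from 72918557 to 72958514), went from 123 and 126 TPM to 34.3 and 34.9 TPM (log2 fold change -1.98, SE 0.0802). The C4 methyl oxidase gene *Msmo1* went from 113 and 123 TPM to 50.9 and 51.6 TPM (log2 fold change -1.33, SE 0.068). In each of these the iPSC lines lay within a few TPM of each other and far under either fibroblast line. *Sc5d*, sterol-C5 desaturase, fell from 71.3 and 81.4 TPM to 32.6 and 29.5 TPM (log2 fold change -1.42, SE 0.0924).

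The other 4 genes of this stretch were not called. *Hsd17b7*, the 3-ketosteroid reductase of the same C4 demethylation complex as *Nsdhl* and *Msmo1*, had 25.5 and 26.2 TPM in fibroblasts and 24.8 and 24.5 TPM in iPSCs. *Ebp*, the sterol isomerase, had 57.6 and 61.6 TPM against 54.5 and 68.7 TPM, and *Dhcr7*, which encodes the last reductase of one branch, had 51.7 and 57.2 TPM against 49.5 and 67.7 TPM. For *Ebp* and *Dhcr7* iPSC line 6 lay under and line 10 over both fibroblast lines. The 95% intervals of the log2 fold change were -0.43 to 0.03 for *Hsd17b7*, -0.42 to 0.25 for *Ebp* and -0.44 to 0.39 for *Dhcr7*, and each fold change turned positive with total counts in place of TMM. *Tm7sf2*, a sterol C14 reductase, had 58.1 and 66.1 TPM in fibroblasts and 33.9 and 38.1 TPM in iPSCs (log2 fold change -0.91). Its reads were the least certain of the set, since between 30.6% and 58.9% of its exon reads were placed uniquely. The unique reads numbered 1724 and 1868 in fibroblasts and 634 and 664 in iPSCs, and on these *Tm7sf2* was called lower with a log2 fold change of -1.82. The reads that were not unique numbered 1300 and 1305 in fibroblasts and 1440 and 1497 in iPSCs. *Tm7sf2* overlaps *Vps51* over 9356 bases.

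**Figure D2:**
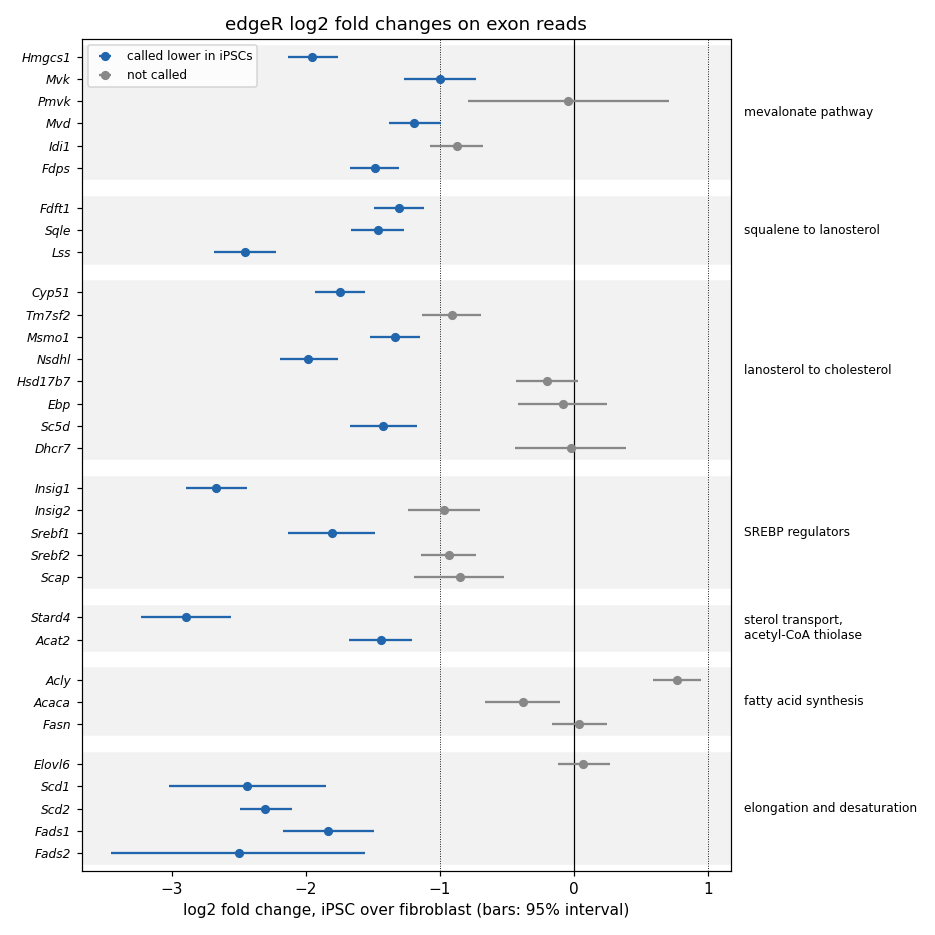
Log2 fold change of iPSCs over fibroblasts from edgeR on exon reads for each of the 32 genes, with the 95% interval as a bar and dotted lines at a 2-fold difference. The 19 genes called lower range from *Stard4* at -2.89 to *Mvk* at -1.0, and *Acly* at 0.77 is the gene farthest to the right.

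Among the regulators of the pathway, *Insig1* fell most. *Insig1* (ENSMUSG00000045294, chromosome 5 from 28071363 to 28078662) had 297 and 340 TPM in fibroblast lines 1 and 2 and 56.4 and 52.8 TPM in iPSC lines 6 and 10, a log2 fold change of -2.67 (SE 0.0848, adjusted p = 0.00016 from edgeR). *Insig2*, the paralog that is not a typical SREBP target, had 51.7 and 54.3 TPM against 31.2 and 28 TPM, and its log2 fold change of -0.97 did not pass the fold threshold. Within a library the ratio of *Insig1* to *Insig2* in TPM was 5.74 and 6.26 in the fibroblast lines and 1.81 and 1.88 in the iPSC lines. This ratio does not depend on how the libraries were scaled.

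*Srebf1* and *Srebf2* encode the SREBP factors, of which SREBP1 is known mainly for fatty acid genes and SREBP2 for sterol genes. *Srebf1* (chromosome 11 from 60199089 to 60222581) fell from 121 and 141 TPM to 36.4 and 45.6 TPM, a log2 fold change of -1.80 (SE 0.123, adjusted p = 0.00051 from edgeR). *Srebf2* had 186 and 196 TPM in fibroblasts and 105 and 114 TPM in iPSCs (log2 fold change -0.93, SE 0.0764), and *Scap* had 58.7 and 63.8 TPM against 40.6 and 33.3 TPM (log2 fold change -0.85, SE 0.125). Both stayed under the fold threshold, although neither group overlapped the other. The ratio of *Srebf1* to *Srebf2* was 0.651 and 0.717 in fibroblasts and 0.348 and 0.398 in iPSCs. On gene reads, which add intron reads, 4 of these 5 regulators were called lower instead of 2, and likewise 4 without iPSC line 6, where *Insig2* was at -1.07 and *Scap* at -1.03 (log2 fold change).

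*Stard4*, a carrier of cholesterol between membranes, showed the largest fall of the 32 genes. *Stard4* (ENSMUSG00000024378, chromosome 18 from 33199355 to 33213862) had 72 and 69.4 TPM in fibroblast lines 1 and 2 and 11 and 9.78 TPM in iPSC lines 6 and 10, and its log2 fold change was -2.89 (SE 0.125, adjusted p = 0.00024 from edgeR). The iPSC mean was 14.7% of the fibroblast mean. *Acat2*, a cytosolic thiolase that makes acetoacetyl-CoA ahead of *Hmgcs1*, fell from 213 and 231 TPM to 93.3 and 84.8 TPM (log2 fold change -1.44, SE 0.0892). For *Acat2* between 59% and 64.4% of the exon reads were unique, and for *Fdps* between 50.4% and 54.4%. On unique reads their log2 fold changes were -1.34 and -1.52. The other genes apart from *Tm7sf2*, 29 in all, had at least 90% unique exon reads in every library.

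The genes that make the fatty acid chain did not follow the sterol genes. *Acly* (ENSMUSG00000020917, chromosome 11 from 100476353 to 100528000) encodes ATP citrate lyase, which makes cytosolic acetyl-CoA from citrate. It had 197 and 210 TPM in fibroblast lines 1 and 2 and 376 and 382 TPM in iPSC lines 6 and 10. Both iPSC lines were above both fibroblast lines, with a log2 fold change of 0.77 (SE 0.0665, adjusted p = 0.00089 from edgeR) that did not pass the fold threshold; with total counts in place of TMM it was called higher, at 1.06. *Fasn*, fatty acid synthase (chromosome 11 from 120805846 to 120824547), had 144 and 158 TPM against 160 and 180 TPM. Its log2 fold change after TMM was 0.04, with a 95% interval from -0.16 to 0.25. *Acaca*, acetyl-CoA carboxylase, had 29 and 31.1 TPM in fibroblasts and 22.9 and 27.6 TPM in iPSCs (log2 fold change -0.38, 95% interval -0.66 to -0.10). The elongase gene *Elovl6* had 31.2 and 33.2 TPM against 37.3 and 36.8 TPM (95% interval of the log2 fold change -0.12 to 0.27).

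Desaturase genes fell, by more than most sterol genes. *Scd2* (ENSMUSG00000025203, chromosome 19 from 44293676 to 44306864), a stearoyl-CoA desaturase that introduces the first double bond into saturated chains, was the most abundant of the 32 genes in fibroblasts. Its TPM was 699 and 785 in fibroblast lines 1 and 2 but 157 and 173 in iPSC lines 6 and 10, with a log2 fold change of -2.30 (SE 0.074, adjusted p = 0.00016 from edgeR). Its neighbour and paralog *Scd1* (chromosome 19 from 44394451 to 44407709) fell from 251 and 283 TPM to 42.5 and 65.6 TPM (log2 fold change -2.44, SE 0.219). Of their exon reads at least 94.8% and 97.9% were unique for *Scd1* and *Scd2*, so few reads were shared between the copies. The ratio of *Scd2* to *Fasn* within a library was 4.84 and 4.98 in fibroblasts and 0.982 and 0.96 in iPSCs.

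*Fads1* and *Fads2* encode the delta-5 and delta-6 desaturases of polyunsaturated fatty acids and lie side by side on chromosome 19, *Fads1* from 10182888 to 10196870 and *Fads2* from 10064164 to 10101503. *Fads1* fell from 220 and 246 TPM to 78.4 and 64.4 TPM (log2 fold change -1.83, SE 0.128). *Fads2* went from 189 and 207 TPM to 50.4 TPM in iPSC line 6 and 25.5 TPM in line 10 (log2 fold change -2.50, SE 0.354, adjusted p = 0.0036 from edgeR), and the iPSC lines differed from each other more than the fibroblast lines did. Without iPSC line 6 its log2 fold change was -3.11, and without iPSC line 10 it was -2.10. The third gene of this cluster, *Fads3* (chromosome 19 from 10041548 to 10059671), had 153 and 185 TPM in fibroblasts and 45.9 and 27.3 TPM in iPSCs (log2 fold change -2.33, SE 0.283). In all 3 genes iPSC line 10 was under line 6. The summed TPM of the fibroblast markers was also lower in line 10 than in line 6, as given above, and the part of feeder cells in the difference between the lines was not tested.

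**Figure D3:**
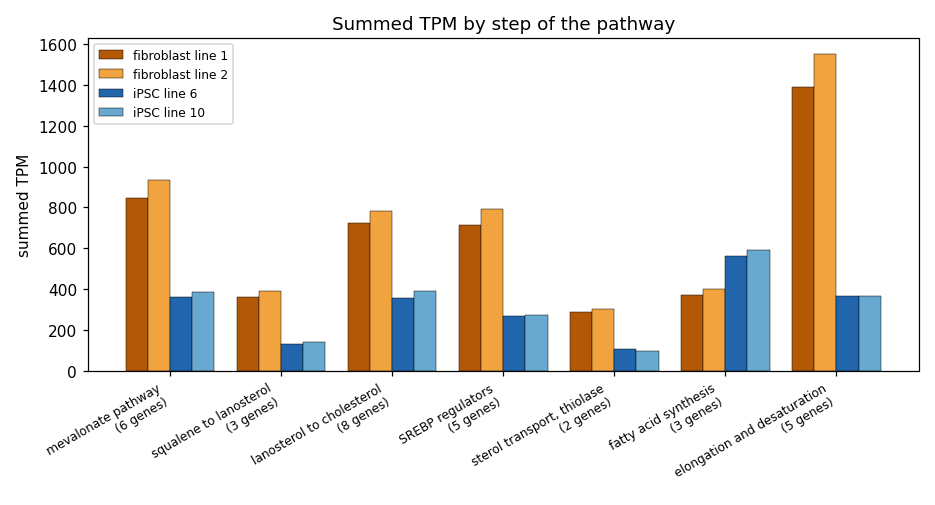
Summed TPM of the genes of each step of the pathway, 1 bar per library (n = 2 lines per group). The 5 genes of elongation and desaturation summed to 1391 and 1554 TPM in fibroblasts and 366 and 365 TPM in iPSCs, while *Acly*, *Acaca* and *Fasn* together summed to 371 and 398 against 560 and 589 TPM.

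By step of the pathway, the summed TPM of iPSCs was 41.9% of the fibroblast level for the mevalonate genes, 36.2% from squalene to lanosterol, 49.6% from lanosterol to cholesterol, 36% for the SREBP regulators and 24.8% for elongation and desaturation, but 149% for *Acly*, *Acaca* and *Fasn*. That sum mainly followed *Acly*, since the single levels were 186% for *Acly*, 113% for *Fasn* and 84% for *Acaca*. Relative to these 3 genes, the summed TPM of the 17 sterol enzymes was 5.22-fold and 5.3-fold in fibroblast lines 1 and 2 and 1.52-fold and 1.56-fold in iPSC lines 6 and 10. The order of the genes changed with this. In fibroblasts *Scd2* was the most abundant, followed by *Hmgcs1* at rank 2 and *Insig1* at rank 3, whereas in iPSCs *Acly* held rank 1 with 17.3% of the summed TPM of the set, *Fasn* rank 2 and *Scd2* rank 3. *Fasn* and *Scd2* were close in iPSCs, where *Fasn* had 170 ± 13.9 TPM and *Scd2* 165 ± 10.7 TPM (SD, n = 2 each). Within a library the ratio of *Scd2* to *Fasn* was 0.982 in iPSC line 6 and 0.96 in line 10, and their difference was not tested.

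Lines of a group were alike in most of these genes. The log2 ratio of fibroblast line 2 to line 1 in TPM ranged from -0.05 for *Stard4* to 0.56 for *Pmvk*. Its median size was 0.12, beside 0.18 for all genes tested. Between iPSC lines 10 and 6 it ranged from -0.98 for *Fads2* to 0.67 for *Pmvk*, with a median size of 0.14, beside 0.23 for all genes tested. The iPSC lines differed by over 1.5-fold in 3 of the 32 genes, *Fads2*, *Pmvk* and *Scd1*, while 21.4% of all genes tested did so. Between the fibroblast lines none of the 32 genes differed by that much, while 13% of all genes tested did so.

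Intron reads, which come largely from transcripts not yet spliced, gave a second measure from the same 4 libraries, added after the exon results were seen and not independent of them. Counted in introns the genes had between 11 and 1477 reads in a library. On intron reads 16 of the 32 genes were called lower and 0 higher, beside 17% and 19.1% of the 17329 genes tested, and the median log2 fold change was -1.04, beside 0.04. Of the 19 genes called lower on exon reads 14 were also called lower on intron reads. The falls of *Insig1* and *Hmgcs1* were the largest. *Insig1* had 1118 and 1181 intron reads in fibroblasts but 141 and 132 in iPSCs, a log2 fold change of -3.61 (SE 0.14, adjusted p = 1.4e-05 from edgeR), and *Hmgcs1* had 780 and 820 against 129 and 104, a log2 fold change of -3.31 (SE 0.153, adjusted p = 1.8e-05 from edgeR). *Lss* had 765 and 792 against 162 and 136 intron reads (log2 fold change -2.93). In all 3 genes each iPSC line was far under each fibroblast line. *Stard4*, with few intron reads, had 84 and 75 against 21 and 11 (log2 fold change -2.70), and *Scd2* had 463 and 508 against 109 and 138 (log2 fold change -2.51). *Idi1* and *Insig2*, which missed the fold threshold on exon reads, were called lower on intron reads with log2 fold changes of -1.26 and -1.14. The chain-making genes *Acly*, *Fasn* and *Acaca* were at 0.42, -0.53 and -0.00 on intron reads and were not called.

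Some genes had smaller fold changes in introns than in exons. *Acat2* had 142 and 112 intron reads in fibroblasts against 175 and 179 in iPSCs, and its log2 fold change of -0.08 was not called, where exon reads gave -1.44. *Scap* had 289 and 291 against 436 and 433 intron reads, with a log2 fold change of 0.03 after normalization. The sterol genes *Fdft1*, *Msmo1* and *Sc5d*, called lower on exon reads, had log2 fold changes of -0.92, -0.94 and -0.90 on intron reads. They missed only the fold threshold there, with adjusted p under 0.05 from edgeR, and were not called. *Mvk*, also called lower on exon reads, had 76 and 84 intron reads in fibroblasts and 110 and 82 in iPSCs. Its log2 fold change of -0.29 on intron reads was not called (adjusted p = 0.33 from edgeR). The difference between exon and intron fold changes was not tested. Intron reads at a gene can also come from overlapping genes or genomic DNA, and the library kit is not described as keeping strand.

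**Figure D4:**
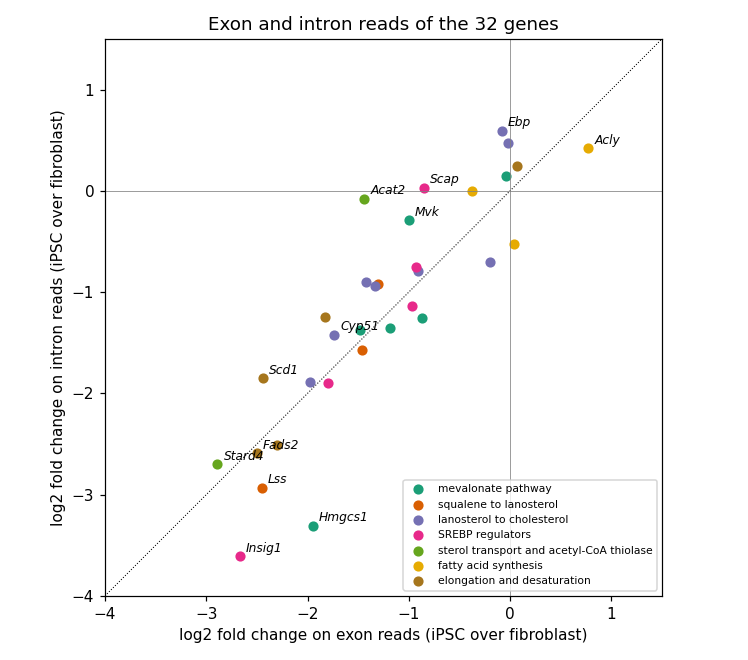
Log2 fold change on exon reads (x axis) against that on intron reads (y axis), iPSC over fibroblast, 1 point per gene, coloured by step of the pathway, with a dotted line of equality. *Insig1* at -3.61 and *Hmgcs1* at -3.31 on intron reads lie under the line, and *Acat2* at -0.08 lies above it.

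Members that share bases with a gene of many reads were *Fdft1* with *Ctsb* over 774 bases, *Cyp51* with *Akap9* over 166 bases and *Srebf1* with *Rai1* over 109 bases, beside *Tm7sf2* with *Vps51*. The partner *Ctsb* had 19781 and 20435 exon reads in fibroblasts and 23132 and 16095 in iPSCs, more than *Fdft1* itself. Any other gene that overlaps a member had at most 1.82% of the exon reads of that member. *Ctsb*, *Akap9* and *Rai1* lie on the opposite strand of their member, and without strand the reads in the shared bases cannot be assigned. *Vps51* lies on the same strand as *Tm7sf2*, so strand would not separate the reads of this pair.

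Genes around the pathway were followed in 6 lists. Of 95 tested genes 12 were called higher and 25 lower, with a median log2 fold change of -0.38. Over all genes tested the shares were 27.1% higher and 22.3% lower, so the share called lower in the lists was near that background and the share called higher was under it. On total counts the lists gave 16 higher and 18 lower. Single lists hold few genes, and each count is read against the same 27.1% and 22.3%. Other sterol and isoprenoid enzymes gave 3 higher and 2 lower of 17, and 1 lower with most other normalizations, with DESeq2 or with limma. *Lbr*, the lamin B receptor, which also has the sterol C14 reductase activity of *Tm7sf2*, rose from 37 and 38.5 TPM to 163 and 190 TPM (log2 fold change 2.09, SE 0.101, adjusted p = 0.00029 from edgeR). *Tm7sf2* was under its fibroblast level in the same libraries but was not called on exon reads (log2 fold change -0.91). Placement of its reads was uncertain, as given above, and a relation between *Lbr* and *Tm7sf2* was not tested. *Erg28*, a scaffold of the C4 demethylation enzymes in yeast, fell from 63.2 and 71 TPM to 28 and 29.5 TPM (log2 fold change -1.35). SREBP processing and sterol sensing genes gave 0 higher and 3 lower of 10, the latter near the background of 22.3%. Among them *Erlin1*, which takes part in degradation of sterol regulators in the endoplasmic reticulum, was at 40.4 and 44.5 TPM against 16.1 and 15.4 TPM (log2 fold change -1.55).

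Genes of lipoprotein uptake and cholesterol movement gave 0 higher and 6 lower of 14, beside 27.1% and 22.3% of all genes tested, and 3 lower without fibroblast line 2. *Mylip*, a sterol-responsive ubiquitin ligase, fell from 109 and 133 TPM to 28.5 and 22.9 TPM (log2 fold change -2.35, SE 0.148), and the oxysterol-binding protein gene *Osbp* from 121 and 130 TPM to 40 and 36.4 TPM (log2 fold change -1.84). LXR targets and sterol export genes gave 4 higher and 2 lower of 9, the latter at the background of 22.3%, and 1 lower without either fibroblast line, without iPSC line 10 and in most other settings. *Ch25h*, cholesterol 25-hydroxylase, had 6 exon reads in each fibroblast library and 1138 and 753 in iPSC lines 6 and 10. *Abcg1*, a sterol exporter, had 3 in each fibroblast library and 260 and 371 in the iPSC lines. Both are also expressed by macrophages, whose markers were higher in the iPSC libraries as given above. The summed markers were higher in iPSC line 10 than in line 6 (742 against 294 TPM), as was *Abcg1* (9 against 5.85 TPM). *Ch25h* was lower in line 10 than in line 6 (55 against 77.1 TPM). The part of such cells was not tested. *Cyp27a1*, the sterol 27-hydroxylase, fell from 25.5 and 33.7 TPM to 1.85 and 1.23 TPM (log2 fold change -4.30). The list did not move as a whole, and *Abca1* and *Nr1h2* were not called. *Abca1* had 11.5 and 11.8 TPM in fibroblasts and 14.3 and 9.45 TPM in iPSC lines 6 and 10 (log2 fold change -0.10). *Nr1h2* had 71.8 and 83.8 TPM against 71.6 and 78.5 TPM (log2 fold change -0.18).

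Other genes of fatty acid synthesis and activation gave 4 higher and 7 lower of 25 tested, beside 27.1% and 22.3% of all genes. The largest fall in the 6 lists was that of *Acss2*, which makes cytosolic acetyl-CoA from acetate. It had 36.2 and 41.1 TPM in fibroblast lines 1 and 2 and 2.23 and 1.24 TPM in iPSC lines 6 and 10 (log2 fold change -4.58, SE 0.318, adjusted p = 0.00053 from edgeR). *Acly*, which makes the same product from citrate, was higher in both iPSC lines, as described. The acyl-CoA synthetase gene *Acsl5* fell from 60.4 and 74 TPM to 16.3 and 14.9 TPM (log2 fold change -2.23), and the elongase gene *Elovl7* rose from 1.85 and 1.86 TPM to 21.8 and 22 TPM (log2 fold change 3.40, SE 0.144).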

How the data were processed

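Total RNA of 2 fibroblast and 2 iPSC lines was sequenced on an Illumina instrument. The authors deposited, per gene of GRCm38 (named in the submitters' processing notes), counts of total and unique exon, intron and junction reads with TPM; the sources used here name no aligner or counter. Deposited TPM was checked to equal exon reads over exon length, scaled to a fixed library total. RPKM, fractions and lengths deposited by the authors gave no result.

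Exon reads were tested with edgeR 4.0.16 (quasi-likelihood, filterByExpr, TMM, prior count 2) in R 4.3.3. The TMM factors ranged from 0.891 to 1.12. The SE is the size of the log2 fold change divided by the square root of F, and 95% intervals use the total degrees of freedom. The model was also tested on simulated data. Alternatives were gene, unique, junction and intron reads, other normalizations, filters and thresholds, DESeq2 1.42.0, limma 3.58.1 on log2 TPM and each library left out. The members and lists (6 of pathway genes and 5 of markers) were chosen with earlier results of these data known. All members are named. From a pathway list at most 4 called genes were named, by size of the log2 fold change among genes averaging 50 or more exon reads. At most 2 genes that were not called were named, by the highest mean TPM. Not every gene this allows is described. Junction and intron reads were added after seeing the data. Of the listed symbols 1 matched no gene name.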

Additional observations from a re-analysis of the deposited data

How the results depend on the processing

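Genes of the set called lower numbered 19, and 16 to 25 under the alternatives, 18 to 21 with 1 library left out. The median log2 fold change of the set was -1.41 to -1.03. Genes called higher numbered 1, *Acly*, with total counts or no fold threshold. With no fold threshold the pathway lists gave 24 higher and 47 lower instead of 12 and 25, and all genes 5965 lower instead of 3962. With glmTreat the pathway lists gave 8 higher. With 1 library left out the pathway lists gave 11 to 12 higher and 21 to 30 lower.

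Sign changes came in 7 genes that were not called. For *Dhcr7* the log2 fold change was 0.00 with RLE or DESeq2, 0.16 with upper quartile, 0.26 with total counts, 0.07 with a mean of at least 50 reads, 0.09 with limma at each pseudocount and filter, 0.12 on junction reads, 0.47 on intron reads, and -0.26 to 0.16 with 1 library left out. For *Ebp* it was 0.10 with upper quartile, 0.20 with total counts, 0.01 with a mean of at least 50 reads, 0.04 with limma, 0.59 on intron reads and -0.25 to 0.05 with 1 library left out. For *Pmvk* it was 0.14 with upper quartile, 0.24 with total counts, 0.05 with a mean of at least 50 reads, 0.06 or 0.07 with limma, 0.13 on junction reads, 0.15 on intron reads and -0.40 to 0.23 with 1 library left out. *Fasn* gave -0.09 on gene reads, -0.53 on intron reads and -0.04 to 0.10 with 1 library left out, *Elovl6* -0.01 on gene reads, *Hsd17b7* 0.09 with total counts and *Scap* 0.03 on intron reads. The causes were not tested. The call of *Mvk* was lost at -0.72 with total counts and -0.98 with DESeq2. No paired analysis was possible because fibroblast and iPSC lines share no line number. The promoter motif description was not run.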

Other observations

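Fatty acid oxidation, the reverse of fatty acid synthesis, gave 1 gene called higher (2 without fibroblast line 1) and 5 lower of 20, with a median log2 fold change of -0.47, beside 27.1% called higher and 22.3% lower over all genes. *Acaa2*, the mitochondrial thiolase of the last step of the cycle, fell from 196 and 205 TPM in fibroblast lines 1 and 2 to 65 and 57 TPM in iPSC lines 6 and 10 (log2 fold change -1.84, SE 0.109, adjusted p = 0.00039 from edgeR). Its intron reads gave a log2 fold change of -0.56, which was not called.

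Adipocyte markers were measured because lipid synthesis is high in fat cells. Their counts are read against the 22.3% of all genes tested that were called lower and the 27.1% called higher. Of 12 markers 8 passed the filter on low counts, of which 4 were called lower and 1, *Fabp4*, higher, a call that was lost on leaving out either fibroblast line or iPSC line 6. *Pparg*, the adipogenic receptor, had 28.6 and 24.3 TPM in fibroblasts and 1.3 and 0.801 TPM in iPSCs, *Cebpa* 58.5 and 66.9 against 12.8 and 10.5 TPM, *Cd36* 97.6 and 115 against 5.15 and 4.72 TPM, and *Plin4* 59.5 and 61.5 against 0.459 and 0.0853 TPM. The summed TPM of the 12 was 274 and 301 in fibroblasts and 66.6 and 37.1 in iPSCs. *Adipoq*, *Cidec* and *Lep* were at 0 in both fibroblast libraries, while *Plin1* was at 0.786 and 0.552 TPM, *Retn* at 0.0681 and 0.295 TPM and *Lpl* at 21.1 and 23.5 TPM. The part of these genes in the level of the lipid synthesis genes was not tested.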
